A study of Mus musculus with 4 samples.

Results

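Trem2, Tyrobp, Apoe, Gpnmb, Spp1, Cd9, Cd63 and Lgals3 are marker genes of the TREM2 lipid-associated macrophage, a state described in fat tissue, atherosclerotic plaques and tumors. They were taken by gene symbol from a table of read counts for 54532 mouse genes, and all 8 were among the 13715 genes kept because they had at least 10 reads in at least 1 library. The 4 RNA-seq libraries came from wild-type mouse peritoneal macrophages kept either in normal medium or in a mix that held 30% 4T1-CM, the supernatant of the 4T1 mouse mammary carcinoma line. Each medium was combined with the solvent DMSO or with 10 µM CH223191, an antagonist of the aryl hydrocarbon receptor (AHR), a ligand-activated transcription factor. The design asks how macrophages respond to tumor-derived factors and whether the antagonist alters that response. The 4 conditions are called the DMSO control, CH223191 alone, 4T1-CM (with DMSO) and 4T1-CM plus CH223191. There was 1 library for each of them, so no difference between conditions could be tested against the spread between cultures.

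According to the methods of the study, peritoneal macrophages were collected from BALB/c mice of 8 to 10 weeks 5 days after an injection of 5% thioglycollate broth, which draws monocytes into the cavity. The cells rested for 6 h and were pre-treated with DMSO or CH223191 for 2 h before 4T1-CM was added with the same compound. These cells are therefore elicited rather than resident macrophages, and all 4 conditions share the elicitation. How long these 4 cultures were kept in 4T1-CM, and whether cells of several animals were pooled, is not given in the sources used here. The libraries held 15535405 to 17557127 reads, and their scaling factors ran from 0.986 to 1.03. All 7 macrophage markers examined were detected in every library, and Lyz2, the lysozyme of myeloid cells, reached 35572 CPM (counts per 1e6 scaled reads). Markers of other cell types, osteoclasts apart, ranged from 0 to 242 CPM in their sums. The osteoclast genes summed to between 1570 and 2112 CPM. These genes, and the markers of fibroblasts, neutrophils and B cells, which differed between media, are given further on beside the macrophage markers. The 3 T cell markers were at 0, the 5 epithelial markers summed to at most 1.35 CPM, and the 4 mesothelial markers summed to at most 1.32 CPM.

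TREM2 is a surface receptor of myeloid cells that binds phospholipids, lipoproteins and cell debris. It has no signalling motif of its own and depends on TYROBP (also called DAP12), an adaptor whose immunoreceptor tyrosine-based activation motif recruits the kinase SYK. Apolipoprotein E, the product of Apoe, carries lipids out of macrophages and is also bound by TREM2. In lipid-laden tissue, macrophages that carry TREM2 take up lipid, expand their lysosomes and express Gpnmb, Spp1, Cd9, Cd63 and Lgals3 together.

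The stretch of DNA before a gene's start is where many transcription factors bind, and 3 such stretches are shown because they belong to the genes whose values differ most in direction, Trem2 and Spp1, and to Lgals3, the other gene whose window held the searched AHR letters. All are RefSeq sequences of build GRCm38.p6, read 5′ to 3′ on the strand of the gene. Trem2 and Spp1 are given for the 250 bases before the RefSeq start, at chr17:48346151-48346400 (+ strand) and chr5:104434861-104435110 (+ strand, the first of the annotated Spp1 starts). Lgals3 is given for 30 bases, from 102 to 73 bases before its RefSeq start, at chr14:47373758-47373787 (+ strand), which lies inside the gene span of the count table. Capitals mark GCGTG, the core of the AHR response element, or CACGC, the same letters on the opposite strand.
Trem2: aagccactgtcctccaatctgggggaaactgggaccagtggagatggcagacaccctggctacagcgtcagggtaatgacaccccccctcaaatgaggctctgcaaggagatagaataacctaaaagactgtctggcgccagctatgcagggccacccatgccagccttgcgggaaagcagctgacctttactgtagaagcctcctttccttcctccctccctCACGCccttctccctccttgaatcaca
Spp1: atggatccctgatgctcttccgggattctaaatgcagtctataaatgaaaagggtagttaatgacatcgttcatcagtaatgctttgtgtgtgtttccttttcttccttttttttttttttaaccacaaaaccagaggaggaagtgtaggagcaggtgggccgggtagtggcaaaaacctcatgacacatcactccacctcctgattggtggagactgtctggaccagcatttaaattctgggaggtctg
Lgals3: acaggctggcggGCGTGtcccagtccactg
The core lay 27 to 23 bases before the start of Trem2 and 90 to 86 bases before that of Lgals3. It was found in 2 of the 10 promoter windows that RefSeq lists for 7 of the 8 genes (no window was matched for Tyrobp), and in 28.2% of the 32851 mouse promoter windows of the same length. The E-box CACGTG, a motif of MiT/TFE factors, was in 0 of the 10 windows and in 6.02% of all windows. The STAT motif TTCNNNGAA was in 0 of the 10 and in 7.02% of all. These are matches of letters on either strand and do not show binding.

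Together the 8 genes took 4.34% of all reads in the DMSO control and 5.12% with CH223191 alone, against 3.68% with 4T1-CM and 3.70% with 4T1-CM plus CH223191. Gpnmb, which encodes a transmembrane glycoprotein of endosomes and lysosomes, supplied 2.18%, 2.47%, 2.0% and 1.77% of all reads in these 4 libraries and ranked 2, 2, 5 and 6 among all genes. Spp1, which encodes the secreted phosphoprotein osteopontin, ranked 10, 11, 8 and 8. Trem2 ranked 54 and 49 in the libraries in normal medium and 185 and 180 in those in 4T1-CM. The 8 genes are therefore among the more abundant transcripts of these cells, and counting error is small for each of them. It is the absence of replicate cultures that limits every comparison here.

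Levels of different genes can be compared only per kilobase of transcript. With the gene lengths of the count table, reads per kilobase and per 1e6 scaled reads (RPKM) in the DMSO control ran in the order Spp1 3944, Lgals3 3351, Gpnmb 3259, Apoe 1767, Tyrobp 962, Cd9 430, Cd63 424 and Trem2 299. With 4T1-CM the order was Spp1 5130, Gpnmb 3081, Lgals3 1923, Apoe 1049, Tyrobp 575, Cd63 286, Cd9 239 and Trem2 121. With these gene lengths Spp1 led and Trem2 closed the order in both libraries. With the length of the principal transcript in place of the full exon length, Trem2 changed from 4946 to 1088 bases and its RPKM in the DMSO control became 1360, above the 1137 of Tyrobp. In the other 3 libraries Tyrobp remained above Trem2 with either length. The order of the receptor and its adaptor thus depended on the length used in the DMSO control alone. The ends of the whole order depended on it too. With principal transcript lengths Gpnmb led in the DMSO control at 5736, ahead of Lgals3 at 4388 and Spp1 at 4313. With 4T1-CM, Spp1 led at 5610. Cd9 closed that order in both libraries, at 715 and 399.

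**Figure D1:**
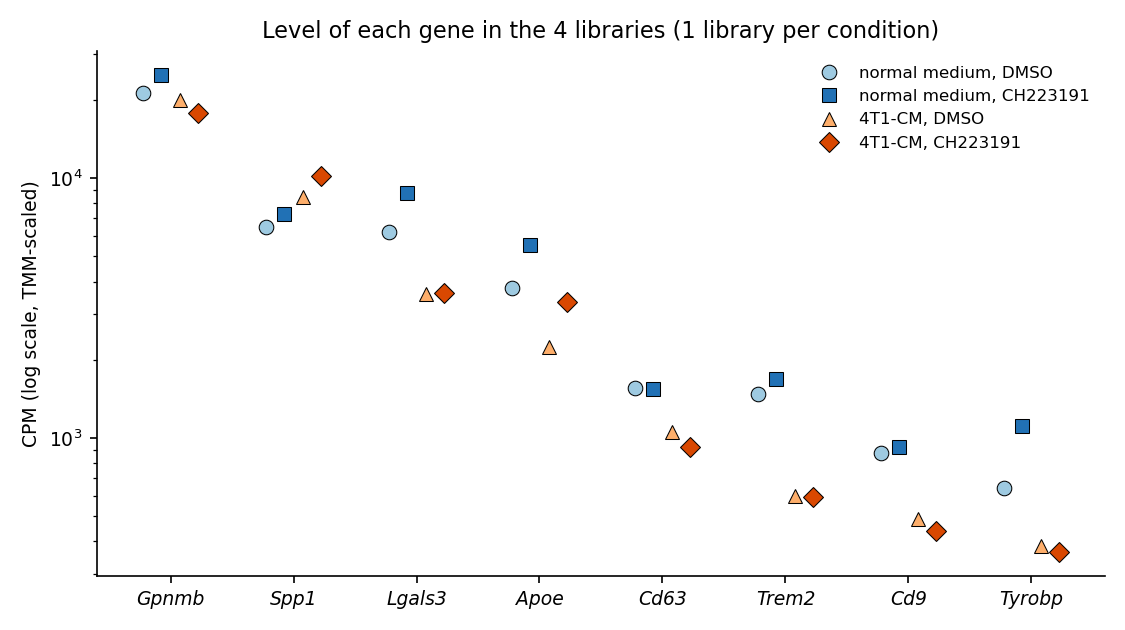
Level of the 8 genes in CPM (log axis, scaled with TMM factors) in each of the 4 libraries, with 1 point per library and no error bars because there was 1 library per condition. For 7 genes both libraries in 4T1-CM lie below both libraries in normal medium, while for Spp1 both lie above.

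Most of these genes had fewer scaled reads in 4T1-CM than in normal medium, and with DMSO the receptor gene Trem2 had the most negative ratio of the 8. With either compound, 7 of the 8 genes were below their level in normal medium and Spp1 was above it. At least 2-fold lower were 1 of 8 with DMSO (Trem2) and 4 of 8 with CH223191 (Tyrobp, Trem2, Lgals3 and Cd9), and 0 of 8 were at least 2-fold higher in either comparison. Among all 13715 kept genes, 6.11% were at least 2-fold lower and 12.2% higher with DMSO, and 7.86% lower and 12% higher with CH223191. In both comparisons at once, 1 of the 8 genes (Trem2) was at least 2-fold lower and 0 were higher, beside 3.38% and 8.19% of all kept genes. The median log2 ratio of the 8 genes was −0.75 with DMSO and −0.91 with CH223191, where the median of all kept genes was 0.0082 and 0.016. These 8 genes are abundant, and over the 237 most expressed genes (500 CPM or more on average), which include them, the medians were −0.14 and −0.23 and the shares at least 2-fold lower were 9.70% and 14.3%. In RNA from whole cultures, fewer cells of a type and less RNA per cell cannot be told apart.

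Trem2 stood at 1479 CPM in the DMSO control, 1688 with CH223191 alone, 597 with 4T1-CM and 590 with 4T1-CM plus CH223191. Both libraries in 4T1-CM were far below both in normal medium and were nearly equal to each other. The log2 ratio of 4T1-CM to normal medium was −1.31 with DMSO (95% counting interval −1.34 to −1.28, 2.48-fold lower) and −1.52 with CH223191 (−1.55 to −1.48, 2.86-fold lower). Of all kept genes, 3.60% and 3.24% had a lower ratio in the respective comparison.

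Tyrobp, the adaptor, stood at 641 CPM in the DMSO control, 1110 with CH223191 alone, 384 with 4T1-CM and 364 with 4T1-CM plus CH223191. Its highest value was in the library with CH223191 alone, and the libraries in 4T1-CM differed little. The log2 ratio of 4T1-CM to normal medium was −0.74 with DMSO (−0.79 to −0.70) and −1.61 with CH223191 (−1.65 to −1.56, 3.05-fold lower). Reads of Trem2 per read of Tyrobp were 2.31 in the DMSO control and between 1.52 and 1.62 in the other 3 libraries.

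Apoe, whose product is both a lipid carrier and a ligand of TREM2, stood at 3778 CPM in the DMSO control, 5531 with CH223191 alone, 2244 with 4T1-CM and 3334 with 4T1-CM plus CH223191. It was lower in 4T1-CM and higher with CH223191, and these differences were of like size in each setting. The log2 ratio of 4T1-CM to normal medium was −0.75 with DMSO (−0.77 to −0.73) and −0.73 with CH223191 (−0.75 to −0.71).

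Lgals3, which encodes the galactoside-binding lectin galectin-3, stood at 6227 CPM in the DMSO control, 8783 with CH223191 alone, 3572 with 4T1-CM and 3617 with 4T1-CM plus CH223191. As for Trem2 and Tyrobp, the libraries in 4T1-CM were nearly equal and the library with CH223191 alone was the highest. Its log2 ratio of 4T1-CM to normal medium was −0.80 with DMSO (−0.82 to −0.79) and −1.28 with CH223191 (−1.29 to −1.27, 2.43-fold lower).

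The tetraspanins CD9 and CD63 organise membrane microdomains, CD9 mainly at the cell surface and CD63 in late endosomes and lysosomes. Cd9 stood at 878 CPM in the DMSO control, 919 with CH223191 alone, 489 with 4T1-CM and 440 with 4T1-CM plus CH223191. Cd63 stood at 1562, 1548, 1053 and 920 CPM in the same order. Both genes were lower in 4T1-CM with either compound, Cd9 by more than Cd63. The log2 ratio of Cd9 was −0.84 with DMSO (−0.88 to −0.81) and −1.06 with CH223191 (−1.10 to −1.02). Cd9 with CH223191 was the member just past the 2-fold line, and it came to −0.87 once the trend of the ratios on gene length was removed. For Cd63 the log2 ratios were −0.57 (−0.60 to −0.54) and −0.75 (−0.78 to −0.72). A transcribed pseudogene, Cd63-ps, shares sequence with Cd63 and held 1396 to 2144 reads per library, beside 14950 to 24907 for Cd63, so the split of reads between them is uncertain.

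Gpnmb had the most reads of the 8 genes in every library and, with DMSO, the ratio nearest to 0. With CH223191 its ratio was about as far from 0 as that of Spp1, in the opposite direction. It stood at 21228 CPM in the DMSO control, 25068 with CH223191 alone, 20068 with 4T1-CM and 17886 with 4T1-CM plus CH223191. The log2 ratio of 4T1-CM to normal medium was −0.08 with DMSO (−0.09 to −0.07) and −0.49 with CH223191 (−0.49 to −0.48). The first of these is close to no difference, and 43.5% of all kept genes had a lower ratio in that comparison.

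Spp1 was the exception in direction. It stood at 6500 CPM in the DMSO control, 7316 with CH223191 alone, 8455 with 4T1-CM and 10210 with 4T1-CM plus CH223191. Both libraries in 4T1-CM were above both in normal medium, and the library with both 4T1-CM and CH223191 was the highest. The log2 ratio of 4T1-CM to normal medium was 0.38 with DMSO (0.37 to 0.39, 1.30-fold) and 0.48 with CH223191 (0.47 to 0.49, 1.40-fold), below the 2-fold line in each. Reads of Spp1 per read of Trem2 were 4.39 and 4.33 in the 2 libraries in normal medium and 14.2 and 17.3 in the 2 in 4T1-CM. The balance of these 2 markers of the same state was thus further towards Spp1 in both libraries in 4T1-CM. Trem2, 2.48-fold lower with DMSO and 2.86-fold lower with CH223191, differed between media by more than Spp1.

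**Figure D2:**
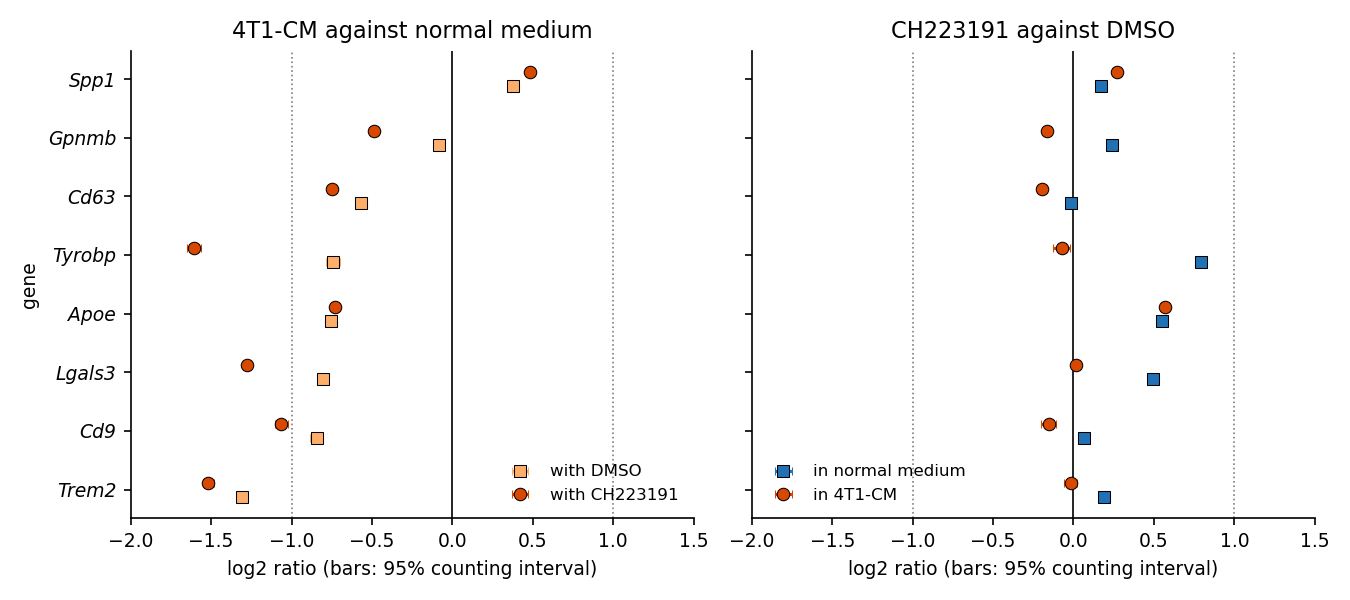
Log2 ratios of the 8 genes, 4T1-CM to normal medium on the left (squares with DMSO, circles with CH223191) and CH223191 to DMSO on the right (squares in normal medium, circles in 4T1-CM). Bars are 95% counting intervals, often narrower than the symbol, and dotted lines mark 2-fold. Trem2 lies past the 2-fold line with either compound on the left (−1.31 and −1.52), and no gene passes it on the right.

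None of the 8 genes differed by 2-fold between CH223191 and DMSO. In normal medium 0 of 8 were at least 2-fold higher or lower, beside 4.84% and 3.31% of all kept genes, and in 4T1-CM 0 of 8, beside 2.75% and 2.66%. The median log2 ratio of CH223191 to DMSO over the 8 genes was 0.22 in normal medium and −0.05 with 4T1-CM, where that of all kept genes was 0.0034 and 0.0039. Apoe was higher with the antagonist in both media, with log2 ratios of 0.55 in normal medium (0.53 to 0.56, 1.46-fold) and 0.57 in 4T1-CM (0.55 to 0.59, 1.49-fold). Spp1 was higher in both as well, at 0.17 (0.16 to 0.18) and 0.27 (0.26 to 0.28), and the first of these came to 0.03 once the trend on gene length was removed. Tyrobp and Lgals3 were higher in normal medium, at 0.79 (0.76 to 0.83, 1.73-fold) and 0.50 (0.48 to 0.51, 1.41-fold), while in 4T1-CM they stood at −0.07 (−0.12 to −0.02) and 0.02 (0.0015 to 0.03).

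Trem2 itself differed little with CH223191, at 0.19 in normal medium (0.165 to 0.216) and −0.02 in 4T1-CM (−0.06 to 0.02), where the interval includes 0. Cd63 stood at −0.01 in normal medium (−0.04 to 0.01), also including 0, and at −0.19 in 4T1-CM (−0.23 to −0.16). Gpnmb stood at 0.24 and −0.17, and Cd9 at 0.07 and −0.15. The receptor and its adaptor were therefore not alike in normal medium with CH223191, where Tyrobp had a higher ratio than 93.1% of all kept genes and Trem2 one higher than 70.0%. Tyrobp is the shortest of the 8 genes, at 667 bases, and in that comparison the fitted trend of the ratios on gene length was above 0 at that length. With the trend on length removed Tyrobp came to 0.56, Lgals3 to 0.38, Apoe to 0.45 and Cd9 to −0.04.

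Whether CH223191 alters the response to 4T1-CM is the question of the combined design, and it is read from the log2 response with CH223191 minus that with DMSO. This difference was −0.86 for Tyrobp (counting interval −0.93 to −0.80), −0.48 for Lgals3 (−0.50 to −0.46) and −0.41 for Gpnmb (−0.42 to −0.40). It was −0.22 for Cd9 (−0.28 to −0.16), −0.21 for Trem2 (−0.26 to −0.16) and −0.18 for Cd63 (−0.22 to −0.14). The response of these 6 genes was thus more negative with the antagonist than with DMSO. Spp1 had a difference of 0.10 (0.09 to 0.12), and that of Apoe, 0.02 (−0.0023 to 0.05), included 0. For Tyrobp, Lgals3 and Trem2 the 2 libraries in 4T1-CM differed by at most 0.07 in log2, and most of the difference lay between the 2 libraries in normal medium. Which of these 2 departs cannot be told with 1 library each. Over all kept genes the median difference was −0.0059, with quartiles of −0.28 and 0.25, so that 5 of the 8 genes lay within the middle 50% of genes. Tyrobp, Gpnmb and Lgals3 lay below it.

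**Figure D3:**
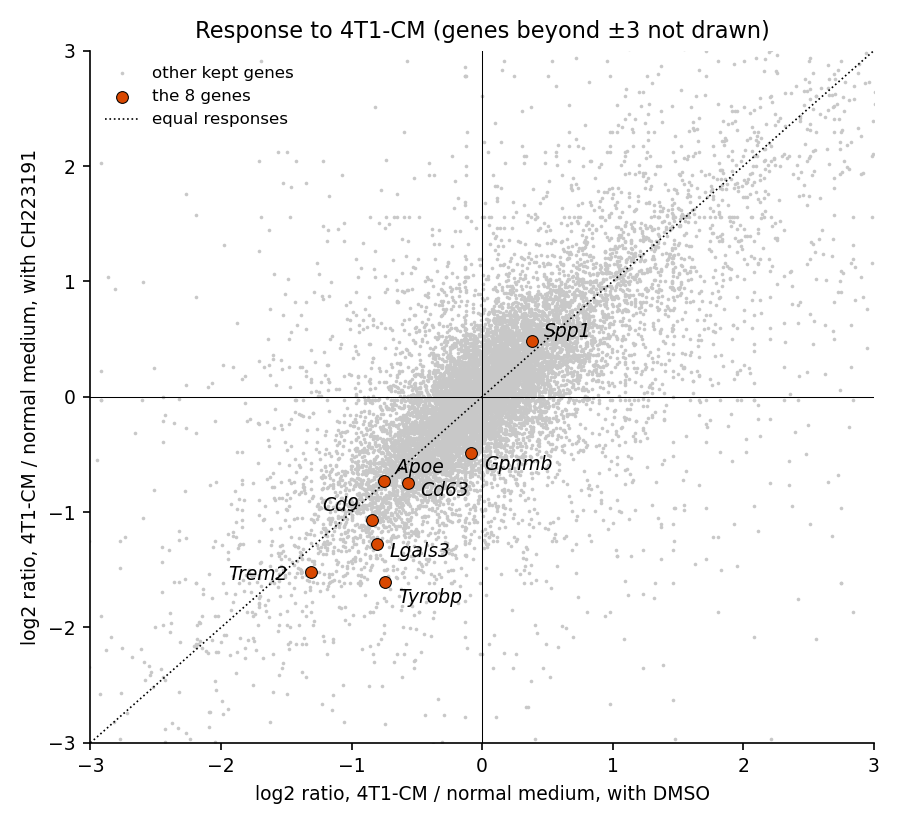
Log2 ratio of 4T1-CM to normal medium with DMSO (x axis) and with CH223191 (y axis) for each kept gene (grey) and for the 8 genes (orange, labelled). The dotted line marks equal responses, and genes with a ratio beyond 3 in either direction are not drawn. Of the 8 genes, 7 lie at the lower left and Spp1 at the upper right, and Tyrobp lies farthest from the line of equal responses (−0.86).

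Beyond the 8 genes, 18 further genes of the lipid-associated program were listed, of which 17 had over 3 reads in each library of the comparison with DMSO. In that comparison 5 were at least 2-fold lower and 2 higher, and with CH223191 7 of 18 were lower and 1 higher. Over all kept genes these shares were, as above, 6.11% lower and 12.2% higher with DMSO, and 7.86% lower and 12% higher with CH223191. The 5 genes lower in both were Itgax (CD11c) at −1.56 and −1.65, Lipa (lysosomal acid lipase) at −1.36 and −1.69, Fabp4 (a fatty acid carrier) at −1.30 and −1.78, Lpl (lipoprotein lipase) at −1.19 and −1.33 and Plin2 (a coat protein of lipid droplets) at −1.13 and −1.30. Fabp5, a second fatty acid carrier, stood at −0.37 and −0.86. No gene of the list was at least 2-fold higher in both. Of all kept genes, 3.38% were lower in both and 8.19% higher in both. Not all of the program was lower. Ctsl (cathepsin L) stood at 0.88 and 0.82 and Clec7a (the β-glucan receptor Dectin-1) at 1.19 and 0.92, which are named after their values were seen. The median of the list was −0.38 with DMSO and −0.79 with CH223191.

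Of 10 genes that act next to TREM2 and TYROBP, 1 was at least 2-fold lower in both comparisons of media and 0 were higher, beside 3.38% and 8.19% of all kept genes. That gene was Lat2, a membrane adaptor, at −1.47 and −1.72. Hcst, which encodes DAP10, the other adaptor used by TREM2, stood at −0.51 and −1.18. The kinase gene Syk stood at 0.49 and 0.46 and Plcg2, a phospholipase downstream of SYK, at −0.24 and −0.49. The proteases that shed TREM2 from the surface, Adam10 and Adam17, stood at 0.16 and 0.27 and at 0.77 and 0.96. So the transcripts of the receptor and its adaptor were lower in 4T1-CM while that of Syk was not. Trem1, a related receptor of inflammation, held 0, 1, 10 and 5 reads in the 4 libraries, too few for a ratio.

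The MiT/TFE factors drive lysosomal genes, Gpnmb among their known targets. All 4 of their genes were below their level in normal medium with either compound, at −1.71 and −1.57 for Tfeb, −0.74 and −0.57 for Mitf, −0.29 and −0.42 for Tfe3 and −0.41 and −0.65 for Tfec. Tfeb alone passed the 2-fold line, in both comparisons of media, beside 3.38% of all kept genes that were at least 2-fold lower in both. Gpnmb, as given above, differed by less than any of these 4 with DMSO.

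Apoe is a target of the liver X receptors, which sense oxysterols. Of 9 genes listed with it, 6 could be compared. At least 2-fold higher in both comparisons of media were 2 of the 6 and lower 0, beside 8.19% and 3.38% of all kept genes. They were Abca1 (a cholesterol exporter), at 2.65 and 2.68, and Mylip (which degrades lipoprotein receptors), at 1.45 and 1.29. Both are also targets of the liver X receptors. Nr1h3, which encodes LXRα itself, stood at −0.72 and −1.56. Of the other targets listed, Srebf1 (a regulator of lipid synthesis) stood at 0.50 and 0.39 and Abcg1 (a further cholesterol exporter) at 0.07 and −0.29, both named after their values were seen. Apoe, at −0.75 and −0.73, was below each of these 4 targets in both comparisons. The neighbouring apolipoprotein genes Apoc2 and Apoc4 had 0 reads. Of 6 genes for receptors of APOE, 2 were at least 2-fold higher in both comparisons and 0 lower, beside 8.19% and 3.38% of all kept genes. These were Lrp8, at 2.51 and 2.07, and Vldlr, at 1.62 and 2.09. Vldlr had only 7 to 32 reads per library and is named after its values were seen. Lrp1, the abundant endocytic receptor, stood at −0.51 and −0.42.

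Osteopontin binds CD44 and integrins. Of their 8 genes, 2 were at least 2-fold higher in both comparisons of media and 0 lower, beside 8.19% and 3.38% of all kept genes. These 2 were the integrin α chains Itga5 (1.08 and 1.0) and Itga9 (1.07 and 1.32). Cd44 stood at −0.01 and 0.05 and Itgav at 0.04 and 0.57. Of 9 tetraspanins and their partners, 0 passed 2-fold with DMSO or with CH223191, beside 18.3% and 19.9% of all kept genes. Cd81, a relative of Cd9, stood at 0.49 and 0.59. Among the galectins, Lgals1 stood at −0.61 and −1.53, and Lgals3bp, a secreted protein that binds galectin-3, was higher at 1.97 and 1.35.

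**Figure D4:**
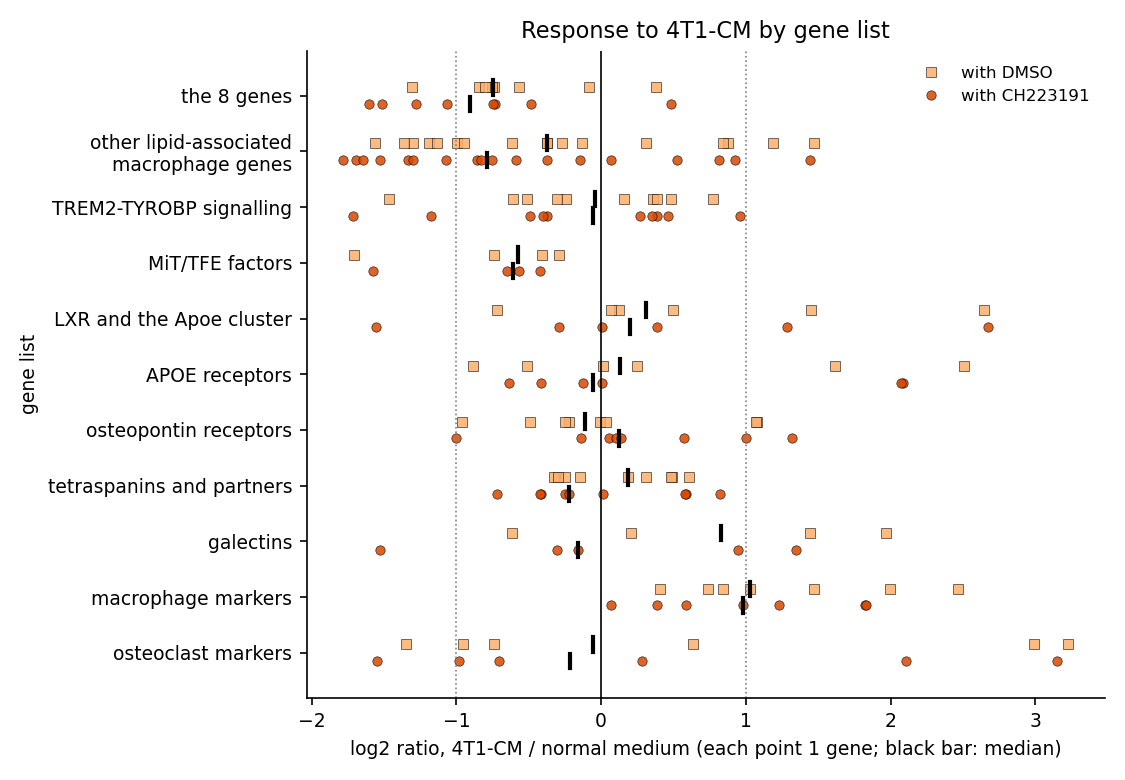
Log2 ratio of 4T1-CM to normal medium for each gene of 11 lists, squares with DMSO and circles with CH223191, black bars the list medians and dotted lines 2-fold. Genes with 3 reads or fewer in a library of the comparison are left out. The 8 genes have medians of −0.75 and −0.91, and the macrophage markers have medians of 1.03 and 0.98.

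Macrophage markers went the other way from 7 of the 8 genes, and the same way as Spp1. All 7 were above their level in normal medium with either compound. At least 2-fold higher in both comparisons were 3 of the 7, beside 8.19% of all kept genes. These were Fcgr1 (an Fc receptor) at 2.46 and 1.83, Adgre1 (F4/80) at 1.99 and 1.83 and Lyz2 at 1.47 and 1.23. Csf1r, the receptor for macrophage colony-stimulating factor, stood at 1.03 and 0.98. Named after their values were seen, Itgam stood at 0.74 and 0.58 and Mertk at 0.41 and 0.38. Cd68, also named so, stood at 0.84 and 0.07, the second of which is close to no difference. Of the 8 osteoclast genes, a related lineage that also expresses Spp1 and Gpnmb, 6 could be compared, with medians of −0.05 and −0.21. Of these 6, 3 were above and 3 below their level in normal medium with either compound. Acp5 (tartrate-resistant acid phosphatase) and Mmp9 (a secreted protease) were at least 2-fold higher in both, beside 8.19% of all kept genes. They stood at 2.99 and 2.11 and at 3.23 and 3.15. Ctsk (cathepsin K) stood at 0.63 and 0.28. The genes on the lower side are named after their values were seen. Atp6v0d2 (a proton pump subunit) stood at −0.95 and −0.98 and Dcstamp at −0.74 and −0.71. Ocstamp, with 4 to 21 reads per library, stood at −1.35 and −1.55. Its counting interval with DMSO, −3.58 to 0.34, included 0.

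The summed levels of fibroblast and of neutrophil markers were higher in both libraries in 4T1-CM than in either in normal medium, but not every marker was. The 6 fibroblast markers summed to 63.0 and 30.1 CPM in the 2 libraries in normal medium and to 149 and 127 CPM in the 2 in 4T1-CM. Of the 5 that could be compared, 4 were at least 2-fold higher in both comparisons of media, beside 8.19% of all kept genes. These were Dcn at 2.15 and 1.59 and the collagen chains Col1a1 (1.28 and 2.54), Col1a2 (1.24 and 1.94) and Col3a1 (1.55 and 3.02). Pdgfra, a growth factor receptor, stood at −0.27 and 0.48, with counting intervals that included 0 in each. The 9 neutrophil markers summed to 67.6 and 74.6 CPM in normal medium and 242 and 181 CPM in 4T1-CM, mostly Mmp8 and Csf3r in 4T1-CM. The 3 that could be compared between media were higher in 4T1-CM with either compound. Mmp8 stood at 5.78 and 5.11, S100a8 at 2.36 and 1.08 and Csf3r at 0.58 and 0.84. Cxcr2, a chemokine receptor of neutrophils, held 12, 9, 2 and 0 reads in the 4 libraries, and the defining markers Ly6g, S100a9 and Retnlg were at 0 in all 4 libraries. The B cell markers summed to 20.1 and 34.2 CPM in normal medium and 7.65 and 4.74 CPM in 4T1-CM. Fibroblasts express Spp1, Cd9, Cd63 and Lgals3 in many tissues, and the part of these cells in the values of those genes was not tested.

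The genes nearest in pattern to each member were taken from 8323 genes averaging 10 CPM or more, by the root mean square difference of the log2 levels over the 4 libraries after each gene's mean was removed. With only 4 libraries many genes come close by this measure, and it is a description. Nearest to Trem2 were Vamp8, Ndufa2 and Romo1 (0.02 to 0.03). Nearest to Tyrobp were Nr1h3, Rpl36 and Lgals1 (0.07 to 0.08), and only 14 genes were nearer to it than Lgals3, its closest fellow member. Gpnmb was closest to Ndufv2, Psmd4 and Klc2, and Apoe to Kri1, Mrpl12 and Pebp1. For Spp1 they were Ccnt2, Cryz and Poglut1, for Cd9 Tmem106a, Cnr2 and Mrpl48, for Cd63 Eef1a2, Chaf1a and Gusb, and for Lgals3 Coprs, Ndufb8 and Cyth4. Of the other 7 members, Lgals3 was also the nearest to Trem2 (0.22), and Spp1 was the farthest from it (0.93).

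The positions of the 8 genes, in GRCm38, were the same in the count table and in GENCODE M21, and all are protein-coding. Trem2 lies on chromosome 17 from 48346401 to 48354147 on the + strand, and its principal transcript has 5 exons. Tyrobp (30413760 to 30417585, + strand) and Apoe (19696109 to 19699188, − strand) lie on chromosome 7. Gpnmb (49036546 to 49070929, + strand) and Cd9 (125460266 to 125494791, − strand) lie on chromosome 6. Spp1 lies on chromosome 5 from 104435118 to 104441050 on the + strand, Cd63 on chromosome 10 from 128900989 to 128912822 on the + strand and Lgals3 on chromosome 14 from 47367751 to 47386160 on the + strand. Spp1 overlaps Gm42793 on the same strand, which held 84 to 132 reads per library against 103623 to 165870 for Spp1. Cd9 overlaps Gm28809 and Gm26728 on the opposite strand, and these held at most 50 reads.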

How the data were processed

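RNA of wild-type mouse peritoneal macrophages in 4 conditions, with 1 library each, was sequenced after TRIzol extraction and NEBNext Ultra library preparation. The deposited table holds raw gene-level read counts (whole numbers) as made by the authors. The submitters' processing notes name HISAT2 2.0.5 and DESeq2, and the methods of the study name featureCounts for bulk RNA-seq of alveolar macrophages. Whether it also counted these libraries, and whether strand was used, is not stated. Of 54532 genes, 54409 were also in GENCODE M21 (GRCm38) and 53462 of these had the same coordinates.

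Genes with at least 10 reads in a library were kept (13715), 103 entries with a repeated symbol being named by identifier. In R 4.3.3, edgeR 4.0.16 gave TMM factors for the scaling, and log2 ratios were taken with 0.5 reads added as a prior. A 95% counting interval treats the reads of a gene in 2 libraries as a binomial draw (Clopper-Pearson, exact). Such intervals cover counting error only, since PCR copies are not independent and cultures were not replicated. Since each condition has 1 library, pairs of conditions were compared without a test, and 2-fold was the rule of size. The only p-values are those of the additive fit named below, which takes the difference between the responses as error. No ratio is given where a library of the comparison has 3 reads or fewer. The calculation was tested on simulated data. A listed gene was picked if it averaged 10 CPM or more and passed 2-fold the same way with DMSO and with CH223191. A fixed set of partners was added, as were the genes marked as named after their values were seen. Some others were named without meeting the rule of level and fold, among them Dcn, Col3a1, Pdgfra, Csf3r, Cxcr2 and Ctsk. The 8 genes and all lists were chosen with earlier results of these data known. Alternatives were DESeq2 1.42.0 size factors, total counts, other filters and prior counts, and an additive edgeR fit. A further 3 were chosen after seeing the data. They were removal of a trend on gene length, library sizes that left out the 8 genes, Fth1, Ftl1 and Lyz2, and principal transcript lengths.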

Additional observations from a re-analysis of the deposited data

Results flagged for a closer look

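The ratios of CH223191 to DMSO for Tyrobp, Gpnmb and Cd9 had opposite signs in the 2 media, with counting intervals that exclude 0 on either side. Tyrobp was higher with CH223191 in normal medium (log2 0.79) and lower in 4T1-CM (−0.07), a difference of −0.86. Gpnmb stood at 0.24 and −0.17, a difference of −0.41. Cd9 stood at 0.07 and −0.15, a difference of −0.22. The smaller of these ratios were ordinary among all kept genes. Of these genes, 35.3% had a lower ratio than Tyrobp in 4T1-CM, and 57.6% a lower one than Cd9 in normal medium. With 1 library per condition these differences were not tested against the spread between cultures. In the comparison in normal medium, removing the trend on gene length took Cd9 to −0.04, so that its directions were no longer opposite, and Tyrobp to 0.56.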

How the results depend on the processing

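Across 8 alternatives, the 32 log2 ratios of the 8 genes kept their sign and their side of 2-fold in all but 1 alternative. With the trend on gene length removed, 31 of 32 kept each, the exceptions being Cd9 with CH223191 in normal medium (0.07 to −0.04) and Cd9 in 4T1-CM with CH223191 (−1.06 to −0.87), which left 3 genes at least 2-fold lower instead of 4. The largest move of any ratio was 0.23. The median over the 8 genes for 4T1-CM with DMSO was −0.79 with total counts, −0.72 with at least 10 reads in every library and −0.66 with the length trend removed. For 4T1-CM with CH223191 it was −0.93 with no filter and −0.79 with the length trend removed. With library sizes that left out the 8 genes, Fth1, Ftl1 and Lyz2 it was −0.85. For CH223191 in normal medium it was 0.16 with total counts, 0.17 with these reduced library sizes and 0.24 with the length trend removed.

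The share of all kept genes past 2-fold moved with the filter. In the order 4T1-CM with DMSO, 4T1-CM with CH223191, CH223191 in normal medium, CH223191 in 4T1-CM, it was 18.3%, 19.9%, 8.15% and 5.41%, against 32.7%, 33.6%, 23.2% and 24.1% with no filter and 11.5%, 13.1%, 2.68% and 1.16% when every library had to hold 10 reads. Under a prior count of 5 the last 2 were 3.87% and 2.39%, and among protein-coding genes 5.23% and 3.11%.

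An additive edgeR quasi-likelihood fit over the 4 libraries leaves 1 residual degree of freedom and takes the difference between the 2 responses as error. Its Benjamini-Hochberg adjusted p for the medium was 1.3e-05 for Trem2, 0.00014 for Lgals3, 0.00024 for Cd9, 0.00041 for Apoe, 0.00075 for Tyrobp, 0.0019 for Cd63, 0.0071 for Spp1 and 0.066 for Gpnmb, where 4476 of 13715 genes were under 0.05. For CH223191 none of the 8 was under 0.05 in adjusted p (Apoe lowest, 0.14), beside 11 of all genes, and Apoe and Spp1 had an unadjusted p under 0.05 (0.00027 and 0.046). No paired analysis was possible because each condition has 1 library and the labels give no replicate numbers, and for the same reason no replicate could be left out. Counting error is small at these depths, and the spread between cultures is unknown.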
